A study of Gallus gallus with 33 samples.

Results

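Cultured sensory epithelium of the utricle, an organ of balance, from White Leghorn chicks was cut along lines with a laser, and transcription factor expression was compared between a late stage (2 hr and 3 hr of recovery) and an early stage (30 min and 1 hr). The late stage held 5 biological samples on 22 arrays (2 hr replicates 1 and 2, and 3 hr replicates 1, 2 and 3), and the early stage held 4 on 11 arrays (30 min replicates 1 and 2, and 1 hr replicates 1 and 2). These are all 9 samples and 33 arrays of the series analysed here. Samples were placed in a stage by recovery time alone, but the stages themselves were chosen with earlier results of these data known. The comparison asks whether the transcription factor response a few hours after a wound differs from the response within the first hour.

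Each array carried laser wounded and unlesioned RNA together, 1 in Cy3 and 1 in Cy5, and each value below is a log2 ratio of laser over control. The unlesioned cultures were matched in time and had also been taken out of the incubator while the lesions were made, so the ratios of both stages are relative to handling and time in culture. The cultures grew from fragments of epithelium that an enzyme had separated from the tissue beneath, and several of them were pooled in each sample. The RNA had been amplified. The probes are 50-base oligonucleotides designed on human genes and used across species on chick RNA, so a probe name is that of the human gene, often an old symbol, and a difference in level between probes cannot be read. Samples of a stage are separate biological samples by their labels, but the labels do not say whether they came from separate animals, and the p-values measure the spread between these samples.

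A wounded epithelium passes through waves of transcription. Immediate early factors, such as the JUN and FOS proteins that form AP-1, are known to be induced by injury without new protein synthesis, and the genes they act on follow. In the avian inner ear, the supporting cells that survive damage re-enter the cell cycle and replace lost hair cells, and TGF-beta and Notch signalling are among the pathways known to shape that tissue.

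Probes were tested where Cy3 or Cy5 signal exceeded 1000 on 50% or more of all arrays, which kept 371 of 1516 probes (24.5%). The filter took both stages together, and 22 of the 33 arrays were late, so a probe could pass with little early signal. On the 11 early arrays, laser and control signal exceeded local background plus 2 SD on 1 and 2 arrays for ISL1. The counts were 3 and 2 for GTF3C4, 4 and 4 for HOXC4 and TRIP15, and 11 and 11 for HES7. Of the markers of the labelled tissue, 5 of the 12 supporting cell and prosensory factors on the array were tested, SOX2, HEY1, HEY2 and ID1 among them. None of the 4 hair cell factors on the array (ATOH1, POU4F3, GFI1 and BARHL1) passed the filter, so hair cells could not be followed. Of the factors of other cells that the cultures could hold, 3 of 10 for blood and immune cells, 3 of 5 for neurons and 1 of 11 for stroma, muscle and glia passed. In these bulk samples fewer cells of a type and less RNA per cell cannot be told apart.

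The samples differed widely in spread. The SD of the ratios over the 371 probes was 1.04 in 3 hr replicate 1, against 0.162 to 0.261 in the other 4 late samples and 0.288 to 0.401 in the 4 early samples. In 3 hr replicate 1 the ratio of laser over control was below -1 for 109 probes, and in the other 8 samples together 16 probes reached below -1 in any sample. That library had 250 of its 371 probes (67.4%) below 0 and was the sample farthest from the median for 207 of them (55.8%). Its ratios divided by 5, its part of the late means, had 71.6% of the variance that the late means had over probes. Covariance with the other late samples is not counted in that figure. Because of this, the differences between the stages are given with and without 3 hr replicate 1. The direction of 4 samples was taken as uncertain. After the ratios were turned to laser over control, their 2 dye orientations correlated below -0.3 across probes. These were the late samples 2 hr replicate 2 (r = -0.37), 3 hr replicate 2 (r = -0.78) and 3 hr replicate 3 (r = -0.80), and the early sample 1 hr replicate 2 (r = -0.63). The dyes in the titles and headers were followed. In 3 hr replicate 1 the 2 orientations had the highest correlation of the 9 samples (r = 0.80), and in 30 min replicate 2 they had r = -0.04. Late and early samples averaged 0.386 and 0.336 in SD, -0.18 and -0.02 in the correlation of the dye orientations and 8.97 and 9.06 in log2 signal (two-sided exact permutation p of 1, 0.69 and 0.833, where 0.0159 is the smallest p that 5 against 4 samples allow). When 3 hr replicate 1 was left out, the SD was lower in the late samples, at 0.222 against 0.336, with all 4 late samples below all 4 early ones. The exact permutation p was then 0.0286, the smallest that 4 against 4 samples allow, and 0.0857 after Benjamini-Hochberg adjustment over the 3 measures. The other measures had p of 0.257 and 0.943 by the same exact test. The sample 3 hr replicate 1 was left out with its wide ratios known, so the p for the SD is not independent of that choice. The lowest SD, 0.162, was that of 3 hr replicate 3, whose dye orientations had r = -0.80. How far opposed dye orientations or the number of arrays enter the SD was not tested. Arrays also differed in the share of spots below local background. It ran from 0.0977% of a channel, on 1 array of 3 hr replicate 3, to 82.4%, on 1 array of 1 hr replicate 2. In 1 hr replicate 2 it was 57.0% or more in each channel, and in 3 hr replicate 2 it was 41.2% or more. Channels of 3 hr replicate 1 had shares of 18.8% to 63.8%. All but 1 array of 2 hr replicate 1 lay between 43.6% and 81.4%, and the other had at most 1.53%. Single early arrays were also high, at up to 54.9% (30 min replicate 1) and 59.0% (1 hr replicate 1). The remaining samples stayed at 34.3% or less. The part of this share in the ratios was not tested.

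**Figure D1:**
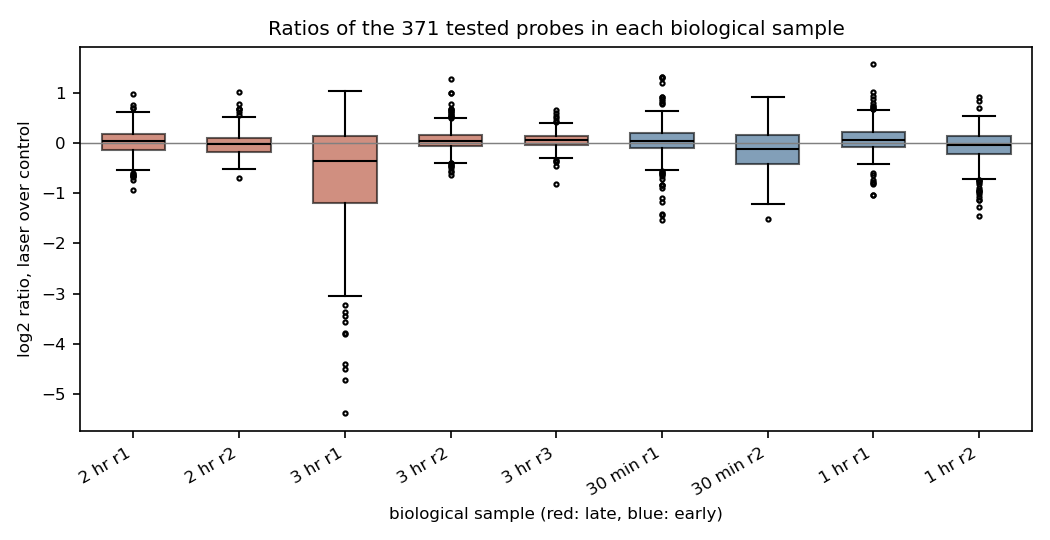
Log2 ratios of laser over control (vertical axis) of the 371 tested probes in each of the 9 biological samples, late in red and early in blue; boxes give the quartiles, points lie beyond the whiskers. The box of 3 hr replicate 1 (SD 1.04) is far taller than the others, and its median lies at -0.36.

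In the comparison of all 9 samples, 0 of the 371 probes (percent called 0) differed between late and early at an adjusted p below 0.05 by limma with Benjamini-Hochberg adjustment. The smallest adjusted p was 0.983. At an unadjusted p below 0.05 there were 5 probes (1.35%), and each had a lower ratio in the late samples: SBB103, KIAA1610, NEUROD6, MADH7 and LDB2. Without 3 hr replicate 1, again 0 probes (0%) were called, with a smallest adjusted p of 0.892, and 7 probes (1.89%) had an unadjusted p below 0.05. Of these, 5 were higher late (HOXA5, MGC2508, IK and ZNF32 among them) and 2 were lower (SBB103 and KIAA1610). Only SBB103 and KIAA1610 were below 0.05 in both fits. The precision limits what these tests can show. The 95% interval of a difference reached 0.45 to either side on the log2 scale at the median probe (1.37-fold) with all samples, and 0.37 (1.29-fold) without 3 hr replicate 1.

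SBB103 had the smallest p of the 9-sample comparison. Its ratios were -0.33 and -0.30 in the 2 hr samples and -0.27, -0.12 and 0.03 in the 3 hr samples, against 0.15 and 0.23 in the 30 min samples and 0.46 and -0.07 in the 1 hr samples. Of the late samples 4 of 5 lay below 0 and of the early samples 3 of 4 lay above it, and the groups overlapped through 3 hr replicate 3 and 1 hr replicate 2. The difference was -0.39 ± 0.14 (SE; unadjusted p = 0.023, adjusted p = 0.983), and -0.37 ± 0.15 without 3 hr replicate 1 (adjusted p = 0.892). On single arrays, 14 of 22 late arrays were below 0 and 8 of 11 early arrays above it, but arrays of a sample are not separate biological samples.

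MADH7, an old symbol of SMAD7, encodes an inhibitor of TGF-beta signalling. Its ratios were -0.48 and -0.53 at 2 hr and -1.47, -0.58 and 0.04 at 3 hr, against 0.31 and -0.49 at 30 min and 0.11 and 0.40 at 1 hr. Late samples were low in 4 of 5 cases, and 30 min replicate 2 was as low as they were. The difference was -0.69 ± 0.30 (95% interval -1.35 to -0.02; unadjusted p = 0.0451, adjusted p = 0.983) and -0.47 ± 0.21 without 3 hr replicate 1. The single arrays of MADH7 stood far apart by dye in both 3 hr replicate 2 and 1 hr replicate 2, at 1.05 and -2.22 in the late sample and at 2.16 and -1.36 in the early one.

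NEUROD6 and LDB2 had smaller differences of the same sign. NEUROD6, a neuronal basic helix-loop-helix factor, had ratios of -0.26 and -0.19 at 2 hr and -0.61, -0.12 and -0.09 at 3 hr, against 0.22 and -0.16 at 30 min and 0.53 and 0.03 at 1 hr. All 5 late samples were below 0, and 1 early sample (30 min replicate 2) lay among them. The difference was -0.41 ± 0.17 (adjusted p = 0.983), and -0.32 ± 0.16 without 3 hr replicate 1. LDB2, a partner of LIM domain proteins, had ratios of -0.25 and 0.08 at 2 hr and -0.47, 0.01 and -0.07 at 3 hr, against 0.38 and 0.32 at 30 min and -0.0029 and 0.13 at 1 hr. The groups of LDB2 overlapped only between -0.0029 and 0.08, and the difference was -0.35 ± 0.15 (adjusted p = 0.983) and -0.26 ± 0.14 without 3 hr replicate 1. KIAA1610, an identifier whose product is not described here, differed by -0.54 ± 0.22 (adjusted p = 0.983), and by -0.40 ± 0.17 without 3 hr replicate 1. Its late ratios ran between -0.88 and 0.13 and its early ratios between 0.03 and 0.55.

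The probe with the largest difference upwards was ATBF1, an old symbol of ZFHX3, which encodes a large protein with zinc fingers and homeodomains. Its ratios were 0.98 and 0.68 at 2 hr and 0.54, -0.03 and 0.26 at 3 hr, against -0.02 and 0.24 at 30 min and -0.81 and 0.21 at 1 hr. Of the 5 late samples 4 exceeded all early ones, 3 hr replicate 3 by little, and 3 hr replicate 2 lay among them. The difference was 0.59 ± 0.27 (unadjusted p = 0.0554, adjusted p = 0.983), and it moved to 0.57 ± 0.27 without 3 hr replicate 1. Of 22 late arrays 18 were above 0, against 4 of 11 early arrays, though all 4 arrays of 1 hr replicate 1 were below 0. Arrays of a sample are not separate biological samples. ATBF1 signal exceeded local background plus 2 SD on 6 (laser) and 7 (control) of 11 early arrays. On the 22 late arrays it did so on 19 and 17.

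Among the next probes by p, IK, which encodes a protein found in the spliceosome, had a difference of 0.40 ± 0.20 with 9 samples and 0.46 ± 0.20 without 3 hr replicate 1 (adjusted p = 0.983 and 0.892). Its ratios were 0.13 and -0.02 at 2 hr and -0.09, 0.26 and 0.34 at 3 hr, against 0.15 and -0.80 at 30 min and -0.07 and -0.40 at 1 hr, so 30 min replicate 2 and 1 hr replicate 2 were the low ones and the other samples overlapped. The direction of IK was lost (-0.016) when 1 dye orientation of the 4 samples of uncertain direction, 1 hr replicate 2 among them, was turned. HOXC4, a homeobox gene, had a difference of 0.26 ± 0.13 (0.21 ± 0.13 without 3 hr replicate 1), with late ratios between -0.08 and 0.34 and early ratios between -0.22 and 0.07. HLA-B, whose human gene encodes a class I histocompatibility antigen, differed by 0.34 ± 0.17, by 0.28 ± 0.17 without 3 hr replicate 1 and by -0.0063 with that orientation turned. Its late ratios were 0.30 and -0.03 at 2 hr and 0.54, 0.64 and -0.05 at 3 hr, and its early ratios lay between -0.16 and 0.02. In HLA-B 3 late samples were above all early samples and the other 2 were within them. The dye orientations of HLA-B lay far apart in 3 hr replicate 1 (-0.81 with laser in Cy3, 1.88 in Cy5). They also did so in 3 hr replicate 2 (-0.31 and 1.58) and in the early 1 hr replicate 2 (-1.26 and 0.93). Both 2 hr samples and 3 hr replicate 3 had the other order, by less. How far dye enters the HLA-B values was not tested. On the low side, NKX2C had -0.45 ± 0.21 and POU6F1, a POU homeodomain factor, had -0.52 ± 0.27. NKX2C had -0.39 ± 0.21 and POU6F1 -0.31 ± 0.18 without 3 hr replicate 1. All of these had an adjusted p of 0.983 with 9 samples.

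**Figure D2:**
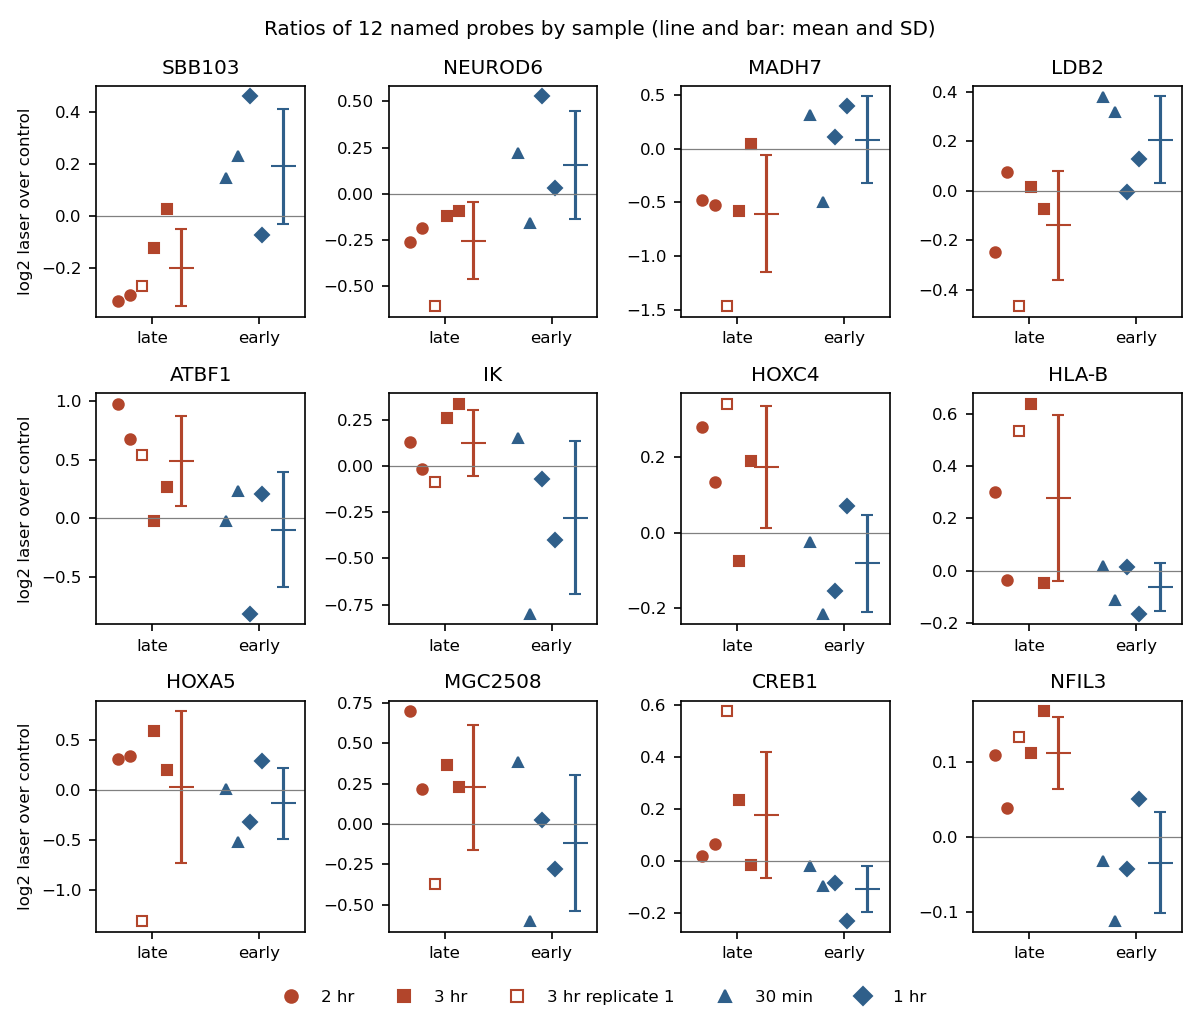
Log2 ratios of laser over control (vertical axis, a scale of its own in each panel) of 12 named probes, with the late samples left of the early samples, 1 symbol a sample, and the mean with its SD beside each group. SBB103, NEUROD6, MADH7 and LDB2 lie lower late (differences of -0.39, -0.41, -0.69 and -0.35), ATBF1 lies higher (0.59), and the open square of 3 hr replicate 1 lies far below the other late samples of HOXA5.

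Leaving out 3 hr replicate 1 changed which probes led the comparison. HOXA5, a homeobox gene, had ratios of 0.31 and 0.34 at 2 hr and -1.32, 0.58 and 0.20 at 3 hr, against 0.01 and -0.52 at 30 min and -0.32 and 0.29 at 1 hr. Apart from 3 hr replicate 1 the late samples lay between 0.20 and 0.58, and only 1 hr replicate 2 among the early samples reached that range. The difference was 0.16 ± 0.37 with 9 samples and 0.50 ± 0.18 without 3 hr replicate 1 (unadjusted p = 0.0206, adjusted p = 0.892). All 6 arrays of HOXA5 in 3 hr replicate 1 were below 0.

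MGC2508, an identifier whose product is not described here, had ratios of 0.70 and 0.22 at 2 hr and -0.37, 0.37 and 0.23 at 3 hr, against 0.39 and -0.60 at 30 min and 0.02 and -0.28 at 1 hr. Its late samples other than 3 hr replicate 1 were all above 0 and overlapped the early samples through 30 min replicate 1. The difference was 0.35 ± 0.25 with 9 samples and 0.50 ± 0.21 without 3 hr replicate 1 (unadjusted p = 0.0376, adjusted p = 0.892). Of the remaining probes that led without that library, ZNF32 had 0.33 ± 0.15, SSX4 0.48 ± 0.22, ZNF273 0.29 ± 0.13, GTF2A1 (a subunit of the general factor TFIIA) 0.29 ± 0.14 and FARSL -0.25 ± 0.12 (adjusted p = 0.892 each). With 1 dye orientation of the samples of uncertain direction turned, the differences lay on the other side of 0 for ZNF32 (-0.058), SSX4 (-0.28) and ZNF273 (-0.18), and in the deposited ratios for SSX4 (-0.019) and GTF2A1 (-0.015).

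The largest differences of the 9-sample comparison came with that library. Of the 20 largest by size, 19 were below 0. In 19 of the 20 the late sample farthest from the median of the late samples was 3 hr replicate 1. BRD1, a bromodomain gene singled out after its values were seen, had the largest difference, -1.29 ± 1.04 (adjusted p = 0.983), and it was -0.27 ± 0.29 without 3 hr replicate 1 and 0.17 with scan date as a block. Its ratio was -5.38 in 3 hr replicate 1, where only 2 of the 6 arrays carry the probe. The other late samples lay between -0.44 and -0.02, against early ratios between -0.88 and 0.61. Over all probes, 74 were more than 1.2-fold lower and 18 more than 1.2-fold higher in the late mean (24.8% in either direction). Of the 74, 15 were more than 1.2-fold lower without 3 hr replicate 1, and 28 were then above 0. Of the 18, 14 stayed more than 1.2-fold higher and 0 turned below 0. Without that library 52 probes were more than 1.2-fold higher and 16 lower (18.3%). The sign of the difference changed in 111 of 371 probes (29.9%), and 41.2% of differences were above 0 with all samples against 60.4% without it. Of the 33 arrays, 5 lacked 96 of the 1516 probes and were taken as another print. All 5 were late, in 3 hr replicate 1 and 2 hr replicate 1, so an effect of that print would fall on late samples only. Both samples also held arrays of the print that the other samples had, only 2 of the 6 in 3 hr replicate 1. Without those arrays 0 of 371 probes were called in late minus early, with 3 at an unadjusted p below 0.05 by limma.

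**Figure D3:**
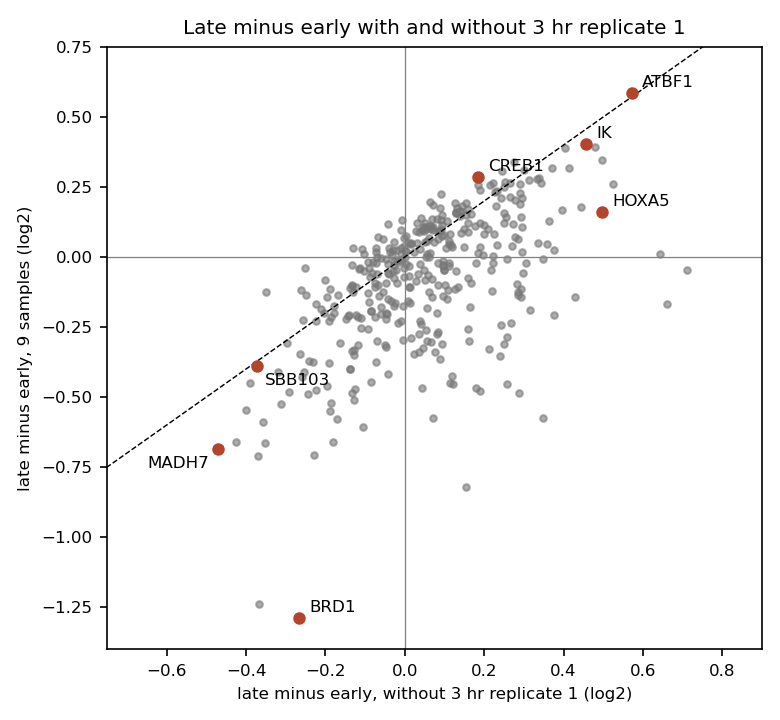
Late minus early difference in log2 ratio of the 371 tested probes, without 3 hr replicate 1 (horizontal axis) and with all 9 samples (vertical axis); the dashed line marks equal values. SBB103, ATBF1 and IK lie near the line, HOXA5 lies below it (0.50 and 0.16) and BRD1 lies far below the line (-0.27 and -1.29).

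Complete separation of the stages was rare. With 9 samples the late and early ratios did not overlap in 1 of 371 probes (0.27%), CREB1, which encodes a factor activated by cyclic AMP signalling. Its ratios were 0.02 and 0.07 at 2 hr and 0.57, 0.23 and -0.01 at 3 hr, against -0.02 and -0.10 at 30 min and -0.09 and -0.23 at 1 hr. The lowest late sample and the highest early sample were thus next to each other, and the difference was 0.28 ± 0.15 (unadjusted p = 0.085, adjusted p = 0.983). The signal of CREB1 exceeded local background plus 2 SD on 5 (laser) and 4 (control) of 11 early arrays. On the 22 late arrays it did so on 18 and 15, so many early ratios of CREB1 rest on signal near background. Without 3 hr replicate 1 the groups of 8 probes (2.16%) did not overlap. Late was above early in 3 of them (0.809%), CREB1, GTF2A1 and ZNF273, and below it in 5 (1.35%), FARSL, NPAS1, TNRC6, TRIP15 and ZNF155. FARSL, which encodes a phenylalanyl-tRNA synthetase subunit, had late ratios of -0.12 and 0.04 at 2 hr and -0.02 and -0.05 in 3 hr replicates 2 and 3, against 0.14 to 0.32 in the early samples, and 3 hr replicate 1 stood at 1.03. Early signal was also near background for most of the 5 lower probes. It exceeded local background plus 2 SD on 4 (laser) and 3 (control) of 11 early arrays for FARSL. The counts were 3 and 3 for NPAS1, 5 and 4 for ZNF155, 4 and 4 for TRIP15, and 8 and 7 for TNRC6. They were 8 and 8 for GTF2A1 and 7 and 6 for ZNF273. Only CREB1 was separated in the same direction with and without 3 hr replicate 1.

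Samples of a stage were no more alike, at the median, than samples of different stages. Pearson's r across the 371 probes had a median of 0.05 over the 10 late pairs, 0.02 over the 6 early pairs and 0.12 over the 20 pairs of a late with an early sample. These values share the array design and the normalization and carry no test. The highest of them, 0.41, was that of 2 hr replicate 1 with 2 hr replicate 2. Other pairs of the same time had -0.24 at 30 min, 0.03 at 1 hr, and -0.16, 0.05 and 0.02 at 3 hr. The next highest, 0.38, was that of 3 hr replicate 1 with 1 hr replicate 2, a late with an early sample. Without 3 hr replicate 1 the medians were 0.07 over late pairs and 0.10 over pairs of a late with an early sample. Tested against 0, the late means gave 0 called probes with 17 at an unadjusted p below 0.05 (4.58%), of which 8 were higher in laser (2.16%) and 9 lower (2.43%). The early means gave 0 with 6 (1.62%), 4 higher (1.08%) and 2 lower (0.539%). Without 3 hr replicate 1 in the fit, the counts at an unadjusted p below 0.05 were 14 for late (3.77%), 11 higher (2.96%) and 3 lower (0.809%), and 20 for early (5.39%), 9 higher (2.43%) and 11 lower (2.96%), again with 0 called (0%). The late and the early mean had opposite signs in 137 of the 371 probes.

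Of the AP-1 and immediate early genes, 9 of the 27 on the array were tested, and 0 had an unadjusted p below 0.05 in either fit. Of these, 3 differences were above 0 and 6 below, with a median of -0.04, against -0.04 over all 371 probes. Without 3 hr replicate 1 they were 5 and 4, with a median of 0.14 against 0.05 over all probes. Over all 371 probes 41.2% of differences were above 0 with 9 samples and 60.4% without 3 hr replicate 1. The counts of each list below are to be read beside these shares. JUN, a core subunit of AP-1, had ratios of -0.03 and -0.15 at 2 hr and -0.73, -0.40 and 0.09 at 3 hr, against -0.15 and 0.28 at 30 min and 0.03 and -0.51 at 1 hr. The samples of JUN overlapped throughout, and the difference was -0.16 ± 0.21 (95% interval -0.64 to 0.32). It was -0.04 ± 0.18 without 3 hr replicate 1, and above 0 with channels read by file name (0.026) or with sample weights (0.060). NFIL3 encodes a leucine zipper repressor. Its late ratios were 0.11 and 0.04 at 2 hr and 0.13, 0.11 and 0.17 at 3 hr, against -0.03 and -0.11 at 30 min and -0.04 and 0.05 at 1 hr. All 5 late samples of NFIL3 were above 0 and 4 of them above every early sample. The difference was 0.15 ± 0.10 (unadjusted p = 0.191, adjusted p = 0.983 by limma). NFIL3 signal exceeded local background plus 2 SD on 5 (laser) and 4 (control) of 11 early arrays. On the 22 late arrays it did so on 15 and 15, so many early ratios of NFIL3 rest on signal near background.

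Of the SMAD and TGF-beta genes 6 of 16 were tested, 1 of them (MADH7) with an unadjusted p below 0.05, against 1.35% of all probes, and 0 without 3 hr replicate 1, against 1.89%. The list had 2 differences above 0 and 4 below, with a median of -0.05, and 4 and 2 without 3 hr replicate 1, with a median of 0.03. MADH5, an old symbol of SMAD5, which carries bone morphogenetic protein signals, had -0.45 ± 0.45, and -0.09 ± 0.29 without 3 hr replicate 1. Its ratio was lowest in 3 hr replicate 1, between -0.65 and 0.19 in the other late samples and between -0.96 and 0.45 in the early samples. Of the Notch effectors 4 of 7 were tested, with 1 difference above 0 and 3 below, and 2 and 2 without 3 hr replicate 1. HEY1 and HEY2 encode repressors that Notch induces, and their differences had opposite signs, -0.23 ± 0.17 for HEY1 and 0.17 ± 0.14 for HEY2, though both signs changed when 1 dye orientation of the samples of uncertain direction was turned (0.021 and -0.0015). HEY1 had -0.26 ± 0.17 and HEY2 0.09 ± 0.12 without 3 hr replicate 1. The high values of HEY1 were early ones, those of 30 min replicate 1 (0.41) and 1 hr replicate 2 (0.68), while its late ratios ran between -0.10 and 0.18. HEY1 signal exceeded local background plus 2 SD on 5 (laser) and 4 (control) of 11 early arrays. On the 22 late arrays it did so on 16 and 13. HES7, a repressor of the same family, had -0.55 ± 0.38, with -1.80 in 3 hr replicate 1, and -0.19 ± 0.17 without that library.

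Of the PAX and EYA genes and related homeobox factors 6 of 19 were tested, with 4 differences above 0, 2 below and a median of 0.04. The counts were 3 and 3 without 3 hr replicate 1. SIX6 had 0.10 ± 0.13, 0.15 ± 0.13 without 3 hr replicate 1 and -0.075 with that orientation turned. Of the cell cycle and proliferation genes 6 of 27 were tested and all 6 differences were below 0 (median -0.15, against 218 of all 371 probes below 0), and 5 of 6 without 3 hr replicate 1 (median -0.10, against 147 of all probes). None of the 6 had an unadjusted p below 0.05. CDK7, the kinase of the general factor TFIIH, had -0.51 ± 0.41 with -1.98 in 3 hr replicate 1, and -0.13 ± 0.18 without it. TRIP15, an old symbol of COPS2, a subunit of the COP9 signalosome, had late ratios of -0.07 and -0.21 at 2 hr and 0.21, 0.05 and -0.08 at 3 hr, against 0.06 and 0.13 at 30 min and 0.34 and 0.07 at 1 hr. Its 4 late samples other than 3 hr replicate 1 were all below the early ones, and the difference was -0.17 ± 0.13 with 9 samples and -0.22 ± 0.13 without that library (adjusted p = 0.892). It was above 0 with median centring (0.015) and in the deposited ratios (0.25).

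The stress response list had 4 tested genes, 1 difference above 0 and 3 below (median -0.16), and the counts turned to 3 above and 1 below without 3 hr replicate 1 (median 0.04). Of all probes 41.2% and 60.4% were above 0 in these fits. XBP1, a factor of the unfolded protein response, had ratios of 0.08 and 0.29 at 2 hr and 0.03, 0.19 and 0.11 at 3 hr, against -0.0033 and 0.40 at 30 min and 0.68 and 0.32 at 1 hr. It was above 0 in all 5 late samples and in 3 of 4 early ones, and it differed by -0.21 ± 0.15, and by -0.19 ± 0.16 without 3 hr replicate 1. HIF1A, the oxygen-regulated factor, had 0.12 ± 0.16, 0.05 ± 0.15 without 3 hr replicate 1 and -0.037 with scan date as a block. Of the NF-kappa-B, STAT and IRF genes 4 of 24 were tested, with 2 differences on each side of 0, and 1 above and 3 below without 3 hr replicate 1. IRF2, an interferon regulatory factor, had -0.31 ± 0.26, -0.12 ± 0.19 without that library and 0.027 with 1 dye orientation of the samples of uncertain direction turned.

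The HOX genes showed how far 1 library set the counts. Of 38 on the array 12 were tested, with 6 differences above 0 and 6 below (median 0.02). Without 3 hr replicate 1, 10 were above 0 and 2 below, with a median of 0.13 against 0.05 over all probes and 60.4% of all probes above 0, and 1 of the 12 (HOXA5) had an unadjusted p below 0.05, against 1.89% of all probes. For 3 hr replicate 1 the median HOX ratio was -0.79. The other late samples had medians of 0.01 to 0.17, against -0.17 to 0.04 in the early samples. Against 41.2% and 60.4% of all probes, 5 of the 10 SOX and forkhead genes tested were above 0 with all samples and 8 without 3 hr replicate 1. Among them HNF3A, an old symbol of FOXA1, had -0.71 ± 0.40, and -0.37 ± 0.22 without that library, with 3 hr replicate 1 lowest (-1.77) and 1 hr replicate 1 highest (1.00). Of the genes named as zinc fingers 20 of 167 were tested. Against 41.2% of all probes (60.4% without 3 hr replicate 1), 13 of these 20 (15 without 3 hr replicate 1) had a difference above 0. Among them ZNF75A had 0.31 ± 0.16 (0.30 ± 0.17 without 3 hr replicate 1), with late ratios between -0.13 and 0.10 and early ratios between -0.69 and 0.01. Of the general transcription machinery 9 of 39 were tested, 4 above 0 and 5 below, and 6 and 3 without 3 hr replicate 1. GTF3C4, a subunit of TFIIIC, had 0.31 ± 0.17, and 0.24 ± 0.17 without that library. Of the nuclear receptors 7 of 46 were tested, 1 above 0 and 6 below, and 3 and 4 without 3 hr replicate 1.

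The listed factors of other cells gave no difference at an unadjusted p below 0.05 by limma in either fit. NEUROD6, described above as a neuronal factor, was not on these lists. With all samples it was lower late (-0.41) at an unadjusted p below 0.05 by limma. It had -0.32 without 3 hr replicate 1. The 3 listed neuronal factors all had differences above 0 with all samples, and 1 of 3 did without 3 hr replicate 1. The median ratio of the 3 blood and immune factors ran between -0.03 and 0.15 in the late samples and between -0.14 and 0.47 in the early samples. That of the 3 neuronal factors (NEUROG1, ISL1 and POU4F1) ran between -0.01 and 0.43, the highest in 3 hr replicate 1, against -0.12 to 0.18 in the early samples. Their part in the differences above was not tested.

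**Figure D4:**
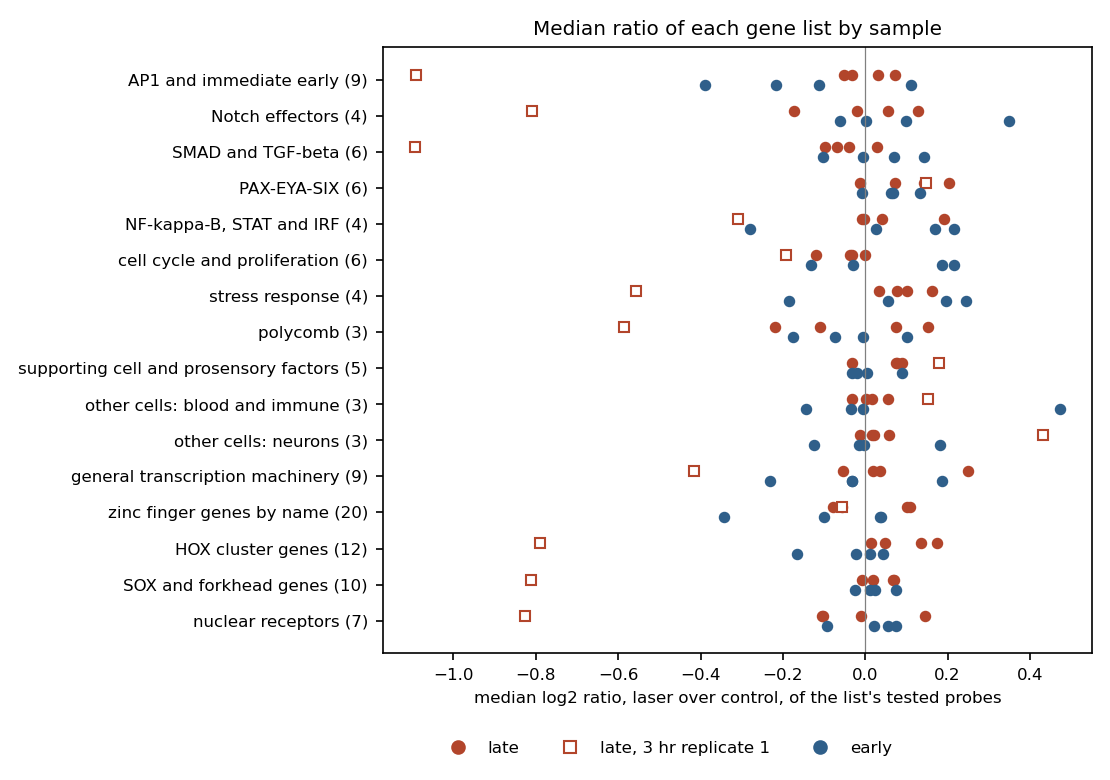
Median log2 ratio of laser over control (horizontal axis) over the tested probes of each gene list, by biological sample, with late samples in red above the early samples in blue and the number of tested probes in brackets. The open squares of 3 hr replicate 1 lie as far as -1.09 for the AP-1 and the SMAD lists, outside the range of the other samples, while the remaining late samples overlap the early ones in each list.

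Arrays of both stages shared a scan date in 3 cases, and within-date differences could be taken there (3 hr replicate 2 with 1 hr replicate 2, 2 hr replicate 2 with 30 min replicate 2, and 2 hr replicate 1 with 1 hr replicate 1). In the last pair the late sample had 1 dye orientation, so a dye effect does not cancel. SBB103 differed by -1.39 to -0.05, NEUROD6 by -0.79 to -0.12 and LDB2 by -0.54 to -0.12 within these dates, and each was below 0 in 3 of 3. IK was above 0 in 3 of 3 (0.45 to 0.98). MADH7 (-0.98 to 0.16) was below 0 and ATBF1 (-0.23 to 1.99) and CREB1 (-0.05 to 0.46) were above 0 in 2 of 3. Each date holds 1 sample of a stage, so these values have no error of their own. The probes were named by their values on these same arrays, so agreement in sign is in part built in. Of 34 named probes, 28, 27 and 25 had the sign of the 9-sample difference within the 3 dates. Of the samples in these pairs, 3 hr replicate 2, 1 hr replicate 2 and 2 hr replicate 2 are of uncertain direction.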

How the data were processed

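The authors deposited, for each of 33 two-colour arrays, spot and local background intensity values of both channels from the ImaGene software, neither background-subtracted nor normalized, and a series table of log2 ratios, which the authors took from the raw intensities without centring (equal to the channel ratio by file name). The study's own pipeline (LOWESS, removal of poor hybridizations, trend rule, t-test) was not repeated; all arrays were kept. Here the dye was read from the file headers (on 2 arrays files and headers disagreed), background was corrected with normexp (offset 50), and ratios were normalized by loess within arrays, with 18 control identifiers at weight 0. Spots of a probe, arrays of a dye orientation and then both orientations were averaged. A fit in limma 3.58.1 (R 4.3.3) with a mean for each stage gave late minus early, with Benjamini-Hochberg adjustment over the 371 probes that passed the dim filter. The fit was also run on simulated ratios with the same SD in all samples and probes. That simulation leaves out the wide spread of 3 hr replicate 1, so it cannot show how the fit behaves with such a sample. The number of arrays, 2 to 6 a sample, limits the precision. Named probes are the 12 with the smallest p in each fit, those whose groups did not overlap, and up to 3 of each list. The gene lists and the stages were chosen with earlier results of these data known. The results of some probes are not reported here. Alternatives covered background, normalization, filter, array print, dye direction, weights, blocks and each sample left out.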

Additional observations from a re-analysis of the deposited data

Results flagged for a closer look

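In 8 cases 1 sample stood far from the rest of its stage, by the ratio of its gap to the range of the group, and in all 8 it was 3 hr replicate 1. The SD of its ratios gave a ratio of 0.887 (SD 1.04 against 0.162 to 0.261 in the other late samples). Its log2 ratio of laser over control was far below the other late samples for BRD1 (0.923), CDK7 (0.899), HNF3A (0.869), GTF2A1 (0.818), HES7 (0.813) and HOXA5 (0.798). It was far above them for FARSL (0.856). Chance marks about 1 in 20 groups in this way. Over all 371 probes a late sample stood apart in 28.3%, with 3 hr replicate 1 in 98 probes, and an early sample in 4.04%. On the 6 arrays of 3 hr replicate 1, CDK7 ran between -4.29 and 0.27 and HNF3A between -4.54 and -0.16. The 6 arrays of GTF2A1 and of HES7 in that sample were all below 0.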

How the results depend on the processing

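Late minus early gave 0 called probes with all samples and without 3 hr replicate 1 under each alternative run, and leaving out each sample in turn gave 0 in each case. At an unadjusted p below 0.05 there were 0 to 29 and 0 to 41 probes, where 29 and 41 came with no dim filter (1516 probes). Over 371 probes the highest counts were 14 and 36, both with 30 min replicate 1 left out. Deviations from the stage mean had r over 0.1 in 1 of 12 same-numbered pairs of samples and in 12 of 24 other pairs. Such deviations sum to 0 within a stage, so these values cannot decide whether replicate numbers pair the samples. The fit with a replicate block called 0 probes. A 2-sample t-test in place of limma gave 7 and 14 probes at an unadjusted p below 0.05 and 0 after Benjamini-Hochberg adjustment. The late means differed from 0 in 42 probes with scan date as a block, a fit over 31 arrays with a correlation of -0.07 within samples that treats the arrays nearly as independent.

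The 1 probe without overlap became 13 with no dim filter (1516 probes), 0 with both channels above 1000 (47 probes), 6 with signal above local background, 6 with no background correction, 4 with median centring, 4 with scaling between arrays, 2 with channels by file name, 0 in the series table, 3 with the sign of 1 dye orientation turned in the 4 samples of uncertain direction, 62 without those samples and 2 with samples scaled to equal SD. It was 1 to 12 with 1 sample left out. The 8 probes without overlap and without 3 hr replicate 1 became 26, 0 and 17 under the filters and 138 without the samples of uncertain direction, and 10 to 34 with a further sample left out. Fewer samples or more probes make separation easier by construction. Leaving out 1 sample moved late minus early in the SD of the ratios between -0.11 (without 3 hr replicate 1, the one case below 0) and 0.11, in the correlation of the dye orientations between -0.41 and -0.01 and in log2 signal between -0.35 and 0.18.

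Of 35 named probes, 21 kept their sign under every alternative other than leaving samples out, and 0 were called. With that orientation turned, the difference changed sign for IK (-0.016), HLA-B (-0.0063), ZNF32 (-0.058), ZNF273 (-0.18), SSX4 (-0.28), HEY1 (0.021), HEY2 (-0.0015), SIX6 (-0.075) and IRF2 (0.027), and without those samples for HEY1 (0.021). It did so in the series table for SSX4 (-0.019), GTF2A1 (-0.015) and TRIP15 (0.25), with median centring for TRIP15 (0.015), with channels by file name for JUN (0.026), and with sample weights for JUN (0.060) and HIF1A (-0.0013). With scan date as a block it did so for HEY2 (-0.13), HIF1A (-0.037) and BRD1 (0.17). The causes were not tested.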
